A study of Mus musculus with 5 samples.

Results

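The genes of the inhibin, activin and follistatin system were followed through the cells of the juvenile mouse ovary. The 10 genes were chosen by name for their role: the hormone subunits Inha, Inhba and Inhbb, the binding proteins Fst and Fstl3, the co-receptors Tgfbr3 and Tgfbr3l, and the activin receptors Acvr1b, Acvr2a and Acvr2b. All 10 were found among the 31053 genes counted in every library. Untreated C57BL6/J mice gave ovaries at 2, 3, 4, 5 or 6 wk of age, which were dissociated with trypsin. The single cells were sequenced on the 3′ platform of 10x Genomics (kit v3.1), as 1 library per age. No transgene, deletion or drug was present in any library.

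Inhibin is a dimer of the α subunit, encoded by Inha, with a β subunit, and it lowers the secretion of follicle-stimulating hormone by the pituitary. Activins are dimers of β subunits alone, βA from Inhba and βB from Inhbb, and they act in the opposite direction on the pituitary and locally within the follicle. Activins signal through the type II receptors Acvr2a and Acvr2b and the type I receptor Acvr1b, follistatin binds and neutralizes them, and betaglycan (Tgfbr3) raises the affinity of inhibin for the type II receptors. In the ovary the granulosa cells, which surround the oocyte and divide as the follicle grows, are the known source of inhibin.

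The libraries held 48163 cells, between 7779 and 11077 per age, with a median of 9056 to 12424 UMIs (distinct RNA molecules) per cell. Clusters were named from marker genes and from the published profiles of the study's granulosa clusters, and gave 18059 granulosa-like, 13828 stromal-like, 1497 theca-like and 496 hematopoietic-like cells. A further 7956 cells were in clusters left without a name, and these held 6.39% to 8.65% of the UMIs of each member. Of all barcodes, 273 occurred in more than 1 library, with 18 to 35 shared by each pair of libraries. The granulosa-like cells were divided into groups called primordial (811 cells), primary (2549), secondary (3004), S phase (1297), mitotic (2898), antral (4114) and remodeling (3013), the last being the cells the study assigns to follicles in atresia. The stages of several clusters are uncertain, and those of 2 depended on the way of naming. Cluster 0 (2091 of the 3004 secondary cells) and cluster 2 (1794 of the 4114 antral cells) were placed by their correlation with those profiles (0.86 and 0.94). From the markers alone they were primary and remodeling, and their 10 leading genes held markers of these stages (Igfbp5, Wnt4 and Wnt6, and Ghr, Cald1 and Itih5) and none of the stage given. The leading genes of cluster 9, the rest of the secondary group, held Uhrf1 and Pclaf of the S phase list and Wnt6 of the primary list. Its mean z scores of the stage markers were 1.08 for S phase, 0.85 for secondary and 0.84 for primary. Antral cluster 13 scored 0.86 for antral and 0.78 for remodeling. The primordial cluster, antral cluster 11 and mitotic cluster 15 had correlations with their closest profiles of only 0.55, 0.51 and 0.14. The profile closest to the primordial cluster was one the study calls primary. The S phase group (cluster 4) was closest, at 0.97, to a profile the study assigns to secondary follicles. Mitotic clusters 12 and 14 were closest to the same profile (0.86 and 0.63). These 3 clusters were named S phase and mitotic by their markers. Some values that rest on clusters 0 and 2 are therefore also given by cluster, and the others carry this uncertainty. The members themselves were left out of the genes used for clustering. Groups built from expression were compared only as descriptions, with no test, and age and library cannot be told apart. The tables of 2, 3 and 4 wk were made with Cell Ranger 3.1.0 and those of 5 and 6 wk with 6.0.1.

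Levels are in CPM, counts per 1000000: the summed UMIs of a gene in the cells of a group, scaled to all UMIs of the same cells. They are listed from the youngest library (2 wk) to the oldest (6 wk). Brackets after a value hold its 95% interval, which covers counting error only and not the variation between mice. Levels count molecules by their 3′ ends and are not scaled to gene length, so levels of different genes are set side by side only as UMIs. Hematopoietic-like cells, which should not make inhibin, still held 222, 737, 782, 340 and 365 CPM of Inha, and their levels are given as a reference for free RNA. A level is called above the hematopoietic-like level only where its 95% interval lies wholly above theirs. Stromal-like cells held less Inha, at 81.4, 114, 164, 92 and 102 CPM, so this reference may be too high for other cells. For the other members, transcripts of the hematopoietic cells themselves and free RNA cannot be told apart.

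Inha, Inhba, Inhbb, Fst and Tgfbr3l were concentrated in granulosa-like cells, which held 88.5%, 88.1%, 88.2%, 90% and 85.4% of all their UMIs. The other 5 members were spread more widely, and granulosa-like cells held 23.3% of Fstl3 UMIs and 28.8% of Tgfbr3 UMIs. Within each library the granulosa-like level was divided by the level in stromal-like cells, the fibroblast-like cells between follicles. A gene was called when the ratio, with 0.5 UMI added to both counts, was at least 2-fold the same way in all 5 libraries.

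By this rule 5 of 10 members were higher in granulosa-like cells, where 9.18% of the 16349 genes with enough UMIs were. None of the members was lower in all 5 libraries, against 11.2% of the genes. The median over the members of the mean log2 ratio was 2.21, against 0.18 over all genes tested. The Inha ratio was 38.3, 47.7, 28.7, 39.1 and 40.4, and the Inhbb ratio 30, 33.4, 29.4, 23.6 and 39.5. Follistatin showed a ratio of 31.2, 44.9, 28.6, 39.0 and 52.1. The Inhba ratio varied more between libraries, at 7.88, 38.2, 9.39, 18.7 and 38.3. Fstl3 and Tgfbr3 were at least 2-fold lower in granulosa-like cells in 4 of 5 libraries each. The single exceptions were a Fstl3 ratio of 0.562 at 5 wk and a Tgfbr3 ratio of 0.711 at 4 wk.

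**Figure D1:**
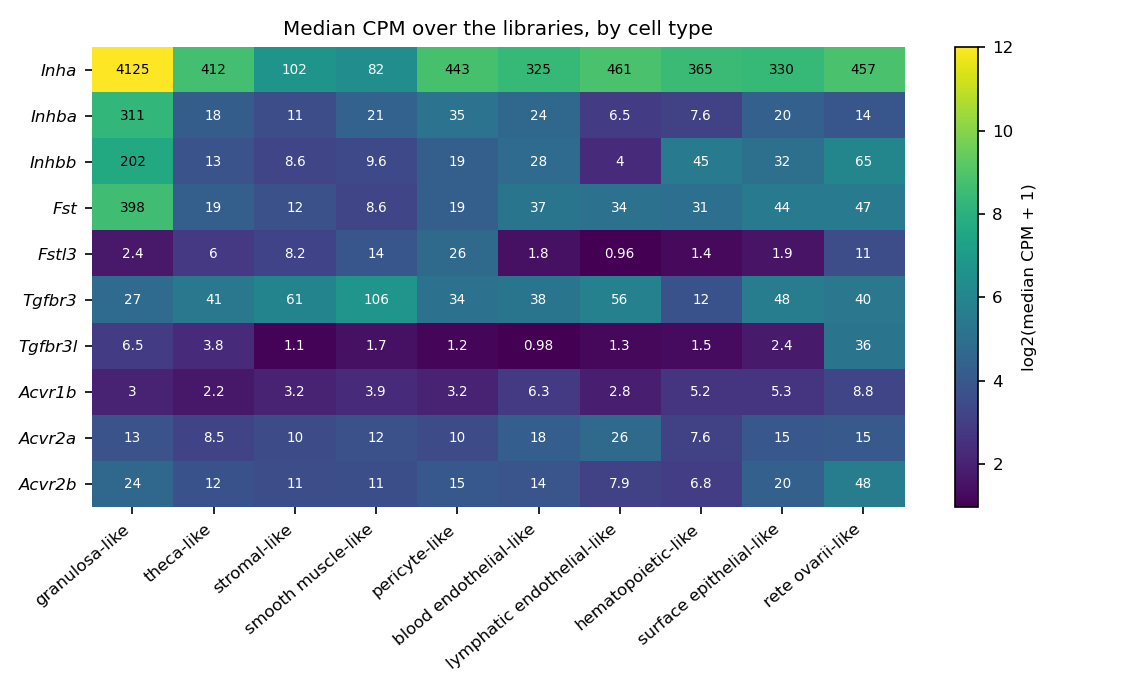
Median level of each member over the libraries (CPM, printed in each field, colour on a log2 scale) in 10 marker-defined cell types. Inha, Inhba, Inhbb and Fst were highest in granulosa-like cells, Tgfbr3 in smooth muscle-like cells and Fstl3 in pericyte-like cells. The rete ovarii-like field for Tgfbr3l rests on 54 and 32 cells at 2 and 3 wk, and granulosa-like levels at these ages were close to it (34.5 and 27.5 CPM against 38.6 and 33.6). These rete ovarii-like cells also carried UMIs of granulosa marker genes.

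Inha lies on chromosome 1 at 75507077-75510366 of GRCm38, the build of the tables. It was the most abundant member in UMIs, with 1408685 in all cells. In the primary group it stood at 1468, 2290, 2430, 1518 and 1713 CPM and in the antral group at 8220, 8641, 5912, 5459 and 6022 CPM. The antral level exceeded the primary level 5.60, 3.77, 2.43, 3.60 and 3.51 times, and the ranges of the groups did not overlap. Ordered by the median, the groups ran from antral through S phase, mitotic, secondary, remodeling and primary to primordial. The antral level was above the S phase level in 4 of 5 libraries and the S phase level above the mitotic level in 4 of 5, so the order of these 3 groups was not the same at every age. The primordial group was the lowest in 4 libraries and showed 648, 1457, 2104, 1330 and 1463 CPM, above the hematopoietic-like level in each. In the 4 wk library its level exceeded that of the remodeling group by a narrow margin (2104 against 2100 CPM).

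The genes for the β subunits did not follow the α subunit alike. Inhba (chromosome 13, 16011851-16031621) was almost absent from the primary group, where it stood at 1.37, 4.45, 5.13, 9.20 and 35 CPM. These levels were not above the hematopoietic-like levels of 4.92, 7.58, 17.6, 7.30 and 78.0 CPM beyond counting error in any library. In the antral group Inhba reached 329, 848, 126, 1355 and 2222 CPM. The antral level was 240 (152 to 407), 191 (139 to 269), 24.5 (15.5 to 41.4), 147 (103 to 218) and 63.4 (55.3 to 73.0) times the primary level. With the primary level not above the reference for free RNA, these ratios are lower bounds of the fold. The 4 wk library was the lowest in the antral group and 6 wk the highest.

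Inhbb (chromosome 1, 119415465-119422248, minus strand) was already measured in the primary group, at 163, 107, 76.4, 50.9 and 65.5 CPM. It was above the hematopoietic-like level there beyond counting error in 4 libraries, and the 4 wk library was the exception. The antral group held 262, 500, 97.4, 327 and 491 CPM of Inhbb, only 1.61 and 1.28 times the primary level at 2 and 4 wk but 4.69, 6.43 and 7.5 times at 3, 5 and 6 wk. The mitotic group, of cells in division, exceeded the antral group in Inhbb in all 5 libraries (266, 869, 316, 356 and 628 CPM), with an interval of the ratio above 1 in 4. This order depends on the make-up of the antral group. Antral cluster 11 (624, 1513, 485, 1290 and 1137 CPM) was above the mitotic group in every library, and clusters 2, 8 and 13 were below it. Cluster 2, of uncertain stage, held 53.5%, 53.9%, 46.2%, 41.6% and 31.7% of the antral UMIs but 20.4%, 3.52%, 4.8%, 3.23% and 2.78% of the Inhbb UMIs. The order without it was not computed. Between the groups as named, Inhba went the other way, with 92.8, 583, 163, 626 and 1308 CPM in the mitotic group, below the antral group in every library except 4 wk.

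The sequences next to the starts of these 2 genes are shown because the genes encode alternative β subunits and their levels parted by group. Each line gives the 250 bases before the start of the gene, 5′ to 3′ on the strand of the gene, from RefSeq windows of GRCm38.p6 (chr13:16011601-16011850, plus strand, for Inhba, and chr1:119422249-119422498, minus strand, for Inhbb). Capitals mark the letters TATAAA, as in a TATA box, in Inhba and GGGCGG, as in a GC box and read on the other strand, in Inhbb.
Inhba: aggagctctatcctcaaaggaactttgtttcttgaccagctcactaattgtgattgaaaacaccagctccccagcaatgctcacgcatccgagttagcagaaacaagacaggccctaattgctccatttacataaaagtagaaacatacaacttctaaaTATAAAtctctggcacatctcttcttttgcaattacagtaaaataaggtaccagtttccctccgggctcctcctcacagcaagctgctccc
Inhbb: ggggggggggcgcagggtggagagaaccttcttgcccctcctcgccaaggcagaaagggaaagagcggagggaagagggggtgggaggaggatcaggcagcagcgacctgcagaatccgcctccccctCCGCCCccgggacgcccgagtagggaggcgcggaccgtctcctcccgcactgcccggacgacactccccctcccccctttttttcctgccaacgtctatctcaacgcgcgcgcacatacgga
The letters TATAAA and GGGCGG were each searched on both strands, in these 2 genes and in all windows. TATAAA occurred in Inhba, from position -91 counted from the start, and in 12.4% of 32851 windows of this length. GGGCGG occurred in Inhbb, from position -122, and in 32.7% of the windows. The Inhba window was 43.2% G and C and the Inhbb window 68.0%, against a median of 52.4%. These are matches of letters, and no binding of a factor was measured.

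**Figure D2:**
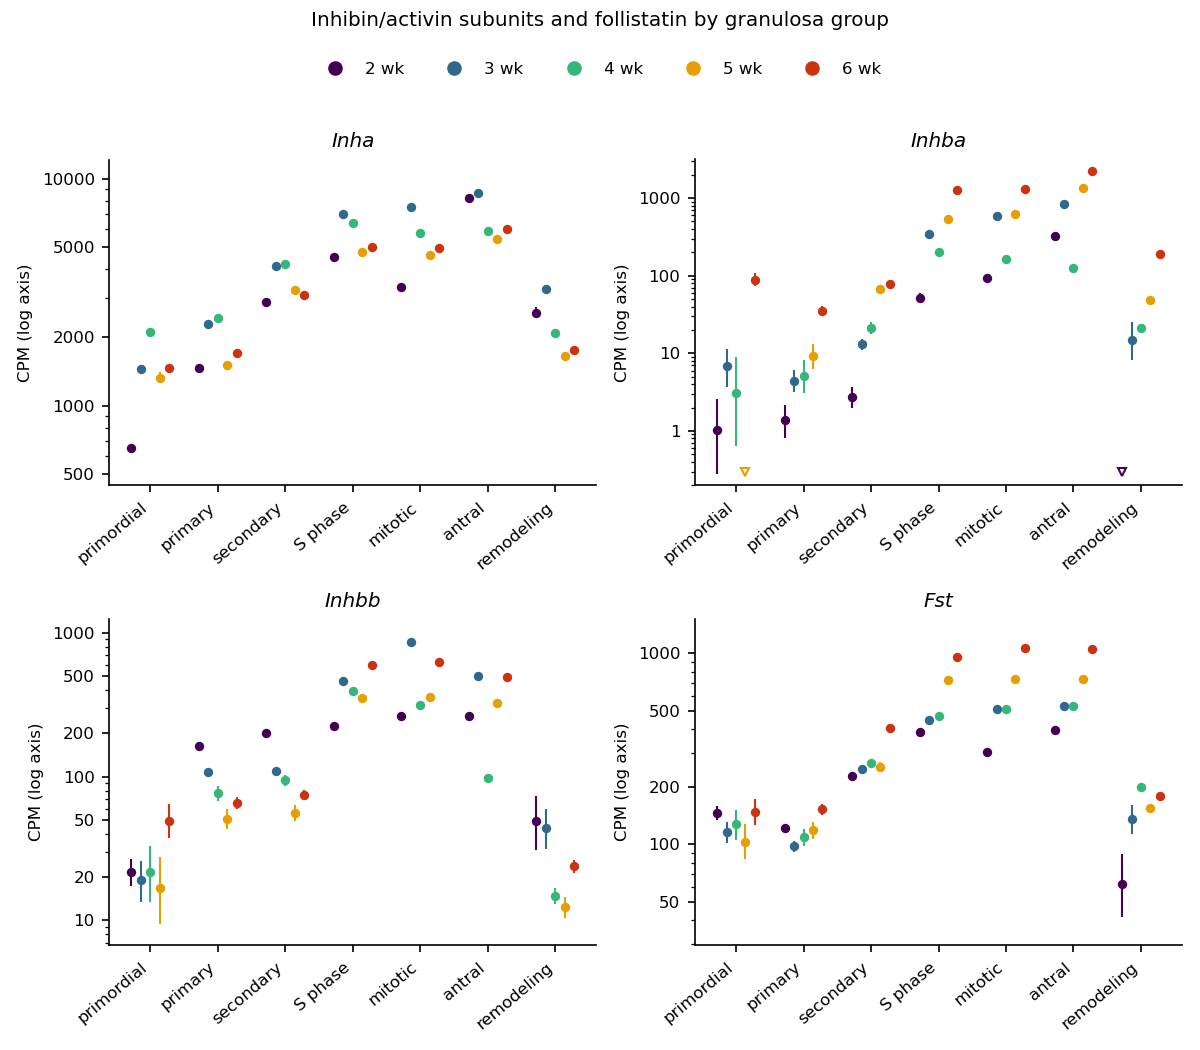
Levels of Inha, Inhba, Inhbb and Fst (CPM, log axis) in 7 granulosa groups, with 1 point per library and its 95% counting interval. Open triangles at the lower edge mark a level of 0. Inha spans less than the β subunit genes, Inhba rises over orders of magnitude from the primary to the antral group, and all 4 are lower in the remodeling than in the antral group.

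The balance of the β subunits was taken as the share of Inhba in the UMIs of both genes. In the secondary group the share was 1.35% (0.989 to 1.81), 10.7% (9.12 to 12.4), 18.6% (15.8 to 21.7), 54.9% (50.6 to 59.2) and 51.3% (48.4 to 54.2). In the antral group it was 55.7%, 62.9%, 56.3%, 80.5% and 81.9%. The antral share exceeded the secondary share in every library, and in both groups the 5 and 6 wk libraries stood above those of 2, 3 and 4 wk. This split is also that of the Cell Ranger versions, so age and version cannot be told apart. At 5 wk the 295 Inhba UMIs of the secondary group came from 25 of its 275 cells, and the 242 Inhbb UMIs from 62. Of these Inhba UMIs, 275 lay in 21 cells of cluster 0. The intervals treat UMIs as independent and do not cover such clumping in few cells. The clusters of the secondary group parted at 5 wk. The share was 1.12%, 6.79%, 22.9%, 65.9% and 58.5% in cluster 0, whose stage is uncertain, and 1.97%, 14.9%, 15.4%, 16.7% (10.5 to 24.6) and 41.2% in cluster 9. In cluster 9 the 5 wk share therefore did not stand apart from those of 3 and 4 wk. The S phase group, closest to a profile the study calls secondary, was counted apart. Its Inhba level was 7.84 to 26.4 times and its Inhbb level 1.12 to 8.05 times the secondary level. The secondary share with these cells included was not computed.

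The mean share over the 5 libraries was 27.4% ± 24.3 (SD) in the secondary and 67.5% ± 12.9 in the antral group, and 18% ± 14.3 and 68.4% ± 11.9 without clusters 0 and 2, an alternative added after seeing the data. Hematopoietic-like cells showed shares of 9.38%, 17.6%, 26.5%, 62.5% and 63.4%, so the same split of the libraries was present in these cells. Only the 5 wk level of Inhba in the secondary group (68.1 CPM) was above the hematopoietic-like level beyond counting error, with 111 CPM in cluster 0 and 10.8 CPM in cluster 9, and the part of free RNA in the secondary shares was not tested. The antral levels of both genes were above it in all 5 libraries.

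The α subunit was counted against both β subunits together. In the antral group 13.9, 6.41, 26.5, 3.24 and 2.22 Inha UMIs were found per β subunit UMI, and in the secondary group 14.1, 33.8, 36.4, 26.1 and 20.2. The secondary clusters differed in this ratio at 5 wk, with 20.3 in cluster 0 and 46.1 in cluster 9. The antral ratio was therefore low at 5 and 6 wk and high at 4 wk, and at 2 wk the intervals of both groups overlapped (13.4 to 14.4 and 13.6 to 14.6). Follistatin UMIs per β subunit UMI in the antral group were 0.673, 0.396, 2.39, 0.435 and 0.387, again highest at 4 wk.

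**Figure D3:**
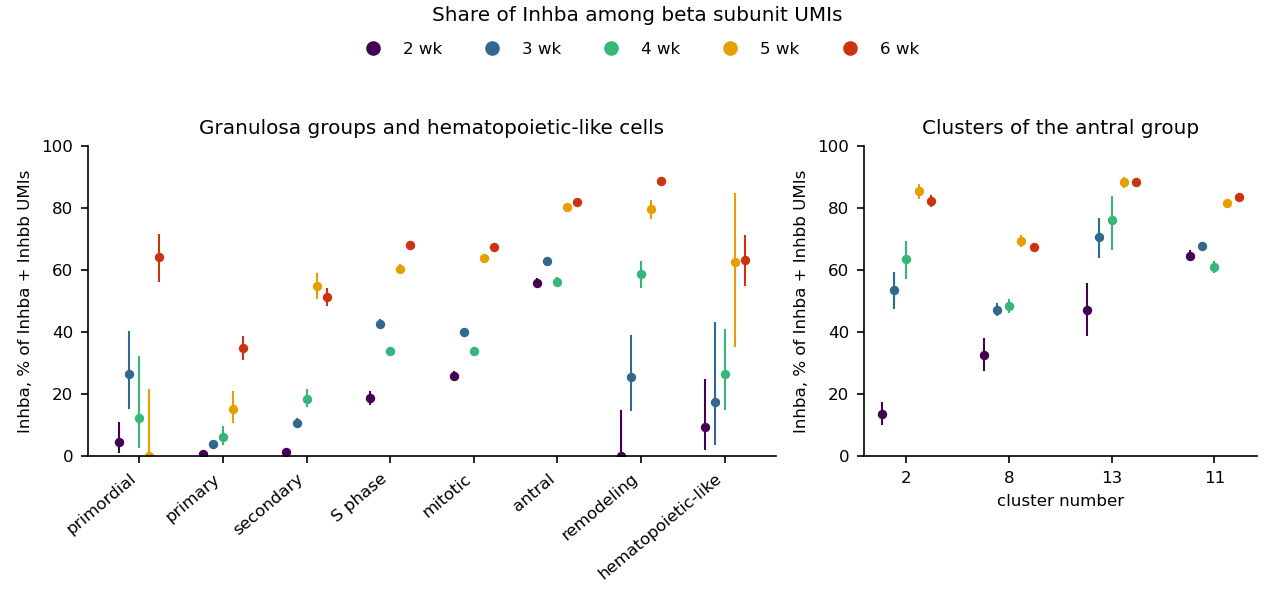
Share of Inhba in the UMIs of Inhba plus Inhbb (percent), by granulosa group and in hematopoietic-like cells (left) and in the 4 clusters of the antral group (right), with 1 point per library and exact binomial 95% intervals. Antral shares lie between 55.7% and 81.9%, and secondary shares between 1.35% and 54.9%.

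The antral group joined 4 clusters, numbered 2, 8, 11 and 13, in which the members differed widely. Cluster 11 carried the genes of estrogen synthesis, with Cyp19a1, the aromatase, at 120, 42.5, 13.7, 145 and 114 CPM. It held 26.5%, 20.3%, 9.60%, 19.4% and 29.8% of the antral cells but 88.6%, 78.5%, 54.4%, 75.5% and 76.6% of their Inhba UMIs. Its share of the Inhbb UMIs was 60.8%, 63.1%, 44.7%, 71.1% and 67.5%. At 4 wk, where the antral level of Inhba was lowest, cluster 11 also made up its smallest share of the group and held its lowest level of Cyp19a1.

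Inhba in cluster 11 stood at 1145, 3196, 761, 5668 and 5837 CPM. In cluster 2, led by Krt20 and Ghr, it stood at 15.7, 37.5, 17.6, 150 and 202 CPM, and the other two clusters lay between at every age. Inha spanned far less, with 10453, 14866, 9890, 10444 and 9329 CPM in cluster 11 and 6479, 5444, 4260, 3211 and 3081 CPM in cluster 2. The clusters therefore differed far more in the β than in the α subunit. Cluster 11 held 1.5 and 1.34 Inha UMIs per β subunit UMI at 5 and 6 wk, and cluster 2 held 18.3 and 12.6. Cells were also thinned to 2000 UMIs each to compare shares of cells at equal depth. At least 1 Inhba UMI was then found in 36.4%, 93.2%, 60.4%, 98.3% and 99.7% of cluster 11 cells. Over the whole antral group the share was 13.6%, 32.6%, 13.8%, 41.0% and 58.9% after thinning, and 29.6%, 45.5%, 32.0%, 57.2% and 74.3% before. After thinning, at most 4.76% of the hematopoietic-like cells of a library held an Inhba UMI, from a median of 6655.5 UMIs per cell against 14927 in granulosa-like cells.

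**Figure D4:**
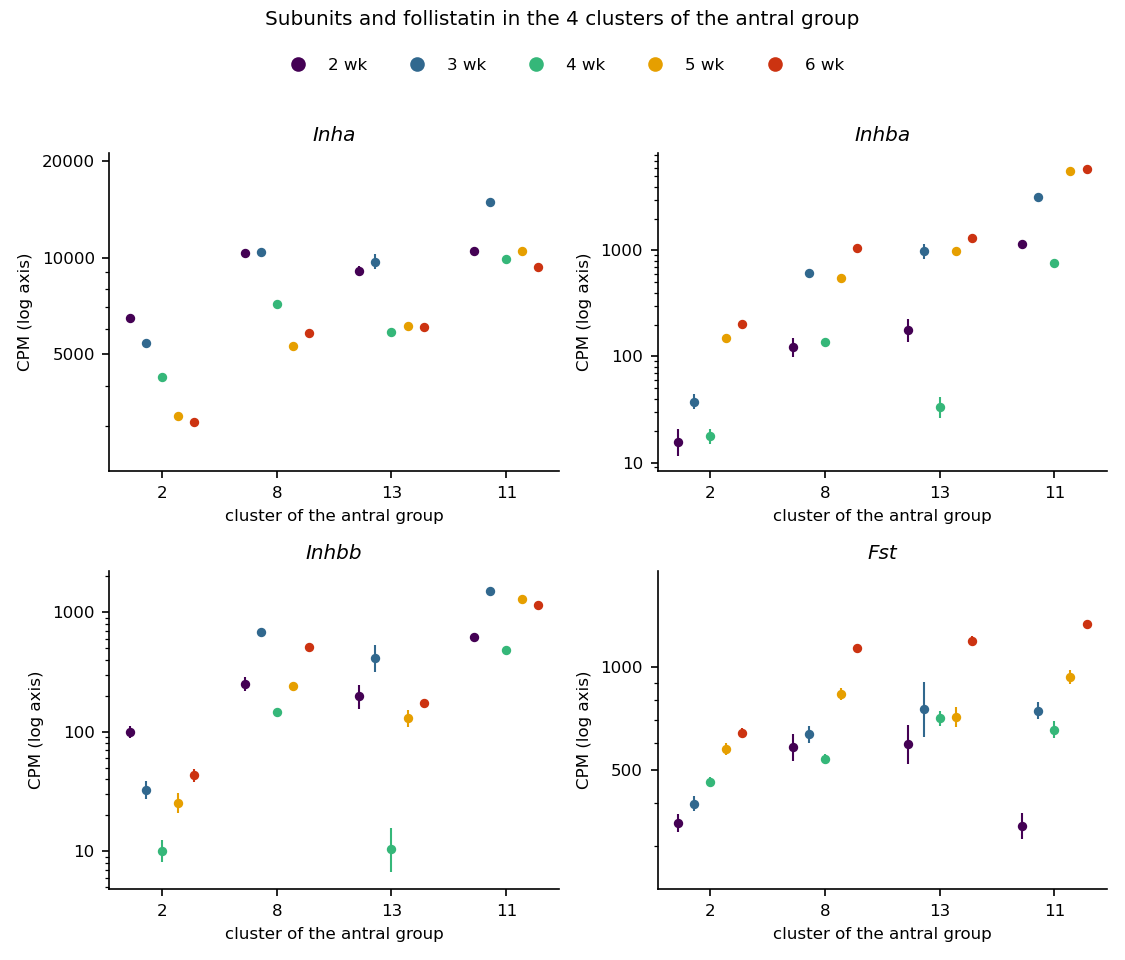
Levels (CPM, log axis) of Inha, Inhba, Inhbb and Fst in the clusters that form the antral group, with 1 point per library and 95% counting intervals. Inhba is lowest in cluster 2 (15.7 to 202 CPM) and highest in cluster 11 (761 to 5837 CPM) at every age.

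Follistatin and its relative Fstl3, both secreted proteins that bind activin, showed different cells of origin. Fst (chromosome 13, 114452290-114458951, minus strand) stood at 121, 97.5, 109, 118 and 153 CPM in the primary group and at 398, 533, 533, 732 and 1050 CPM in the antral group. The antral level was 3.28, 5.47, 4.90, 6.18 and 6.87 times the primary level, and the S phase (386, 448, 469, 727 and 953 CPM) and mitotic groups stood close to the antral group. The interval of the antral to S phase ratio lay above 1 in 3 of 5 libraries, at ratios of 1.01 to 1.19. In the primordial group Fst was 145, 116, 127, 103 and 148 CPM, above the hematopoietic-like level in all 5 libraries. Inhba and Inhbb were above it beyond counting error in none.

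Fstl3 (chromosome 10, 79777272-79782630) was highest in pericyte-like cells, the wall cells of small vessels, at 29.5, 33.8, 26.3, 11.2 and 10.3 CPM. Smooth muscle-like cells followed with 14.7, 22.1, 14.0, 13.9 and 11 CPM, and the pericyte-like level was above theirs in 3 of 5 libraries. Granulosa-like cells held 1.76 to 3.63 CPM of Fstl3, from 3176 UMIs in all cells of the series. At these low counts no order of the granulosa groups was read.

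The co-receptors were high in different granulosa groups. Tgfbr3, encoding betaglycan (chromosome 5, 107106570-107289629, minus strand), was highest in smooth muscle-like cells at 106, 75.8, 77.4, 124 and 112 CPM at every age. Stromal-like cells held 60.6, 41.6, 38.0, 69.5 and 64.9 CPM. Theca-like cells held 36.6, 40.5, 53.3, 73.2 and 40.8 CPM, above the stromal-like level at 4 wk, by less than the counting error at 5 wk, and not above it at the other ages. Within the granulosa groups it was high at both ends. The primordial group held 45.6, 41.5, 37.1, 65.0 and 46.8 CPM and the remodeling group 55.5, 52.2, 38.1, 50.4 and 47.3 CPM. The primary group held 11.3, 15.3, 19.7, 25.2 and 13 CPM, above the hematopoietic-like level at 5 wk only. Both the primordial and the remodeling group were above the primary group in all 5 libraries, by 1.89 to 4.02 and 1.94 to 4.89 times, and the ratio of the primordial to the remodeling level was 0.795 to 1.29, with an interval that held 1 in all 5 libraries.

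Tgfbr3l (chromosome 8, 4248214-4251423), which encodes a relative of betaglycan known as an inhibin B co-receptor in the pituitary, was highest in the primary group. It stood there at 59.8, 79.6, 44.5, 28.8 and 40.1 CPM, against 4.63, 5.03, 1.85, 0.858 and 1.37 CPM in the antral group. The primary level was 12.9 (8.80 to 19.7), 15.8 (11.4 to 22.6), 24.0 (16.6 to 35.6), 33.6 (17.0 to 75.8) and 29.3 (19.6 to 45.4) times the antral level. These are lower bounds of the fold, because the antral level was not above the hematopoietic-like level in any library. The secondary group lay between in every library, with 33.3, 27.8, 16.3, 12.9 and 11.7 CPM, and so did each of its clusters. In the remodeling group Tgfbr3l was 1.05 to 2.57 times the antral level, with an interval above 1 in 1 library. The mitotic group held 32.1 CPM at 2 wk but only 11.2, 4.55, 3.08 and 3.03 CPM at the later ages. Outside the granulosa-like cells Tgfbr3l was measured in rete ovarii-like cells, an epithelium at the hilum of the ovary, at 38.6 and 33.6 CPM from 54 and 32 cells at 2 and 3 wk. Only 5, 1 and 0 such cells were found at 4, 5 and 6 wk. At 2 and 3 wk they also held 1803 and 1502 CPM of granulosa marker genes, Amh, Kctd14 and Tnni3 among them. Granulosa-like cells held 2810 and 2470 CPM of these markers and hematopoietic-like cells 489 and 495. The part of granulosa RNA in the rete ovarii-like level of Tgfbr3l was not tested. The gene overlaps Gm49320 on the same strand, which held 1 UMI in all cells.

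None of the activin receptors was called between the primary and antral or the antral and remodeling groups, and neither were most genes. In the antral against the primary group 2.31% of genes were called higher and 3.53% lower. In the remodeling against the antral group 2.41% were called higher and 0.658% lower. Acvr2b (chromosome 9, 119402118-119434995), a type II receptor, showed 26.7, 32.4, 26.5, 22.1 and 24.9 CPM in the primary group and 21.8, 22.1, 23.6, 16.7 and 19.9 CPM in the antral group. It was lower in the antral than in the secondary group in all 5 libraries, by 1.27 to 1.56 times, with intervals that excluded a ratio of 1. The primordial level (39.2, 51.7, 35, 22.4 and 32.7 CPM) was above the antral level in all 5, by 1.34 to 2.34 times, with an interval above 1 in 4. Its granulosa-like level was 1.95 to 2.62 times the stromal-like level.

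Acvr2a (chromosome 2, 48814109-48903269), the other type II receptor, lay between 8.55 and 20.2 CPM in every granulosa group and library. It was not above the hematopoietic-like level in the primary or the antral group of any library. Acvr1b (chromosome 15, 101174067-101213684), the type I receptor, had the fewest UMIs of all members (1965) and lay between 0.738 and 7.79 CPM. In the remodeling group it stood at 6.4, 4.26, 1.88, 6.17 and 7.79 CPM, above the antral level in all 5 libraries by 1.14 to 2.30 times, with an interval above 1 in 2. The remodeling level was 1.39 to 5.77 times the S phase level, with an interval above 1 in 3. Acvr1b was above the hematopoietic-like level in no granulosa group, and the part of free RNA in its levels was not tested.

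**Figure D5:**
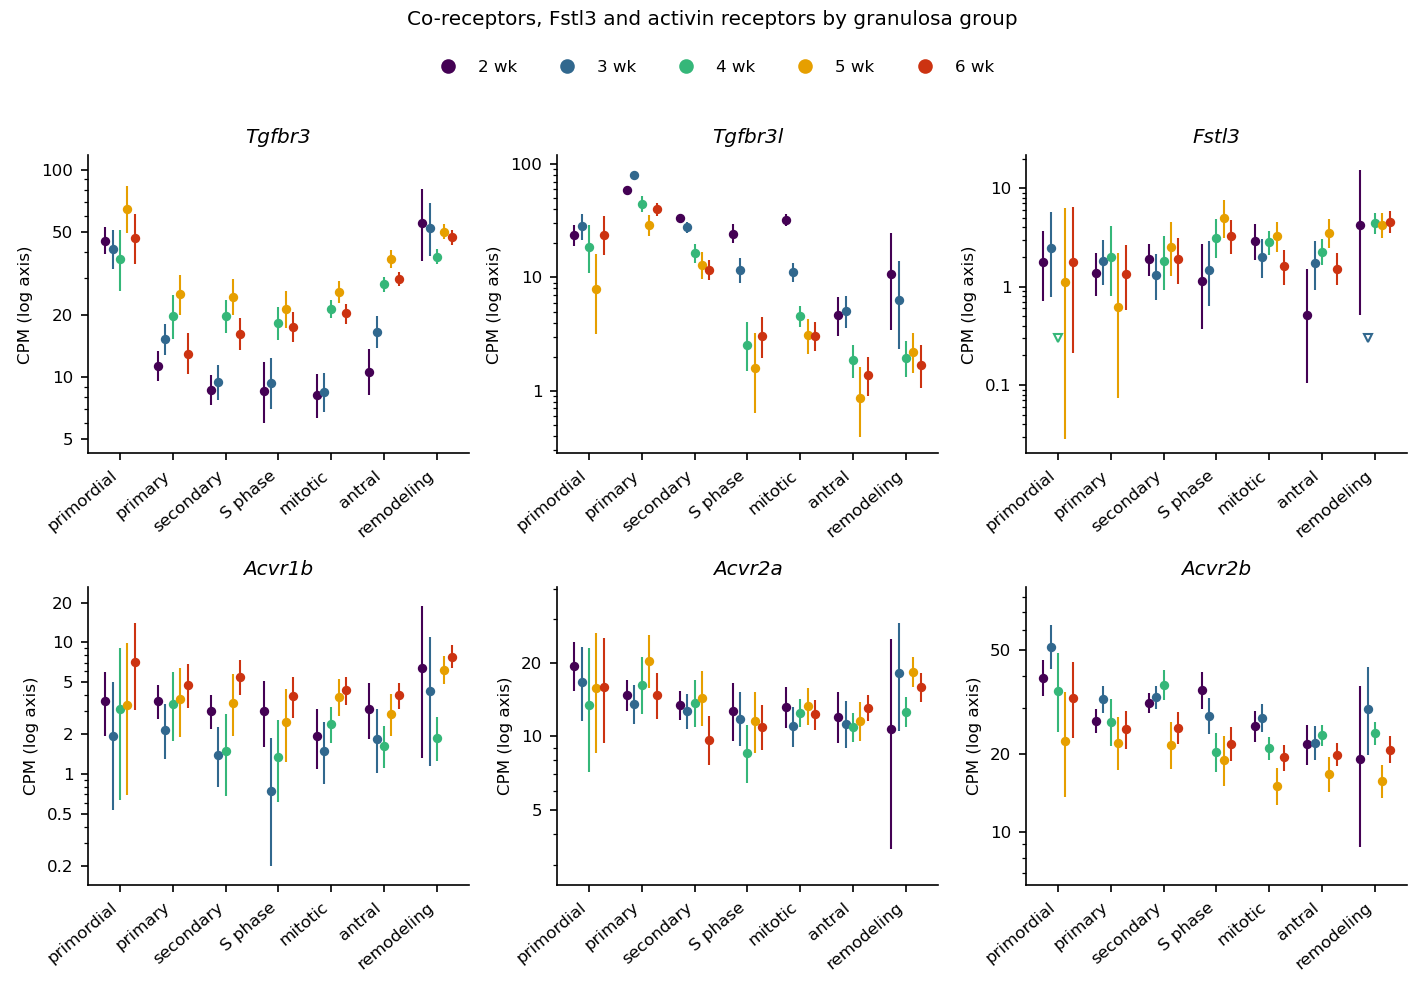
Levels (CPM, log axis) of the co-receptors, Fstl3 and the activin receptors in 7 granulosa groups, with 1 point per library and 95% counting intervals. Open triangles mark a level of 0. Tgfbr3 is high in the primordial and remodeling groups, and Tgfbr3l is highest in the primary group at every age.

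Over all members, Inha, Inhba and Fst were at least 2-fold higher in the antral than in the primary group in all 5 libraries, which held for 2.31% of 13152 genes tested. Tgfbr3l was at least 2-fold lower in all 5, as were 3.53% of the genes. The median over the 10 members of the mean log2 ratio was 0.34, against -0.12 over all genes tested. Inhbb passed 2-fold in 3 libraries, and the mean log2 ratios of the 3 activin receptors lay between -0.43 and -0.35.

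The genes of the hormone subunits and of follistatin were lower in the remodeling than in the antral group. Inha, Inhba, Inhbb and Fst were at least 2-fold lower in the remodeling group in all 5 libraries, where 0.658% of 13219 genes were, and no member was higher in all 5, against 2.41% of the genes. The median mean log2 ratio over the 10 members was 0.22, against 0.09 over all genes, since the other 6 lay above 0. Inha stood at 2573, 3288, 2100, 1663 and 1754 CPM in the remodeling group, 2.63 to 3.43 times below the antral group. Inhba was not found there at 2 wk (0 UMIs in 51 cells, an antral level at least 51.5 times higher when 3 UMIs are assumed), and at the later ages it stood at 14.9, 20.9, 48.5 and 189 CPM. Inhbb was 5.33, 11.5, 6.63, 26.5 and 20.7 times lower, at 49.1, 43.6, 14.7, 12.3 and 23.8 CPM. It was above the hematopoietic-like level beyond counting error at 5 wk only. In the study's pseudotime the paths to antral and to remodeling follicles part at the secondary stage. Inha, Inhbb and Fst were below the secondary group in all 5 libraries, at ratios of 0.499 to 0.898, 0.156 to 0.401 and 0.272 to 0.749. Inhba was above the secondary group in 2 libraries and below it in 3, with an interval above 1 in 1 library and below 1 in 1.

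Fst was 61.9, 135, 200, 154 and 178 CPM in the remodeling group, 6.43, 3.95, 2.66, 4.76 and 5.90 times below the antral group. Tgfbr3 was higher in the remodeling group in all 5 libraries, 5.22, 3.15, 1.36, 1.36 and 1.59 times. The remodeling group was small at 2 and 3 wk, with 51 and 113 cells against 739 to 1262 at the later ages. With stages named from the marker lists alone, a choice made after seeing the data, cluster 2 was remodeling. Inhba and Inhbb were then still lower in all 5 libraries, and the calls of Inha and Fst were lost, at mean log2 ratios of -1.39 and -1.22 against -1.61 and -2.17. With clusters 0 and 2 left out, all 4 were called, and Inhbb was also called higher in the antral than in the primary group.

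The study contrasts follicles of 2 wk, its first wave, with those of 5 wk, and the antral members were compared at these ages. Its whole-mount counts found no antral follicles at or just before 2 wk, though its text places antral follicles of the first wave at this age. Whether the 378 cells of the antral group at 2 wk came from antral follicles was not tested. Inhba was 4.11 times (3.92 to 4.32) higher at 5 wk, Tgfbr3 3.49 times (2.66 to 4.64) and Fstl3, from 3 and 37 UMIs, 6.85 times (2.17 to 34.7). These 3 passed 2-fold, where 5.03% of 10426 genes were at least 2-fold lower at 2 wk. Tgfbr3l alone was at least 2-fold higher at 2 wk, 5.40 times (2.46 to 13) from 27 and 9 UMIs. It too had too few UMIs to be among the genes tested, of which 4.36% were higher. Below the limit, Fst was 1.84 times (1.76 to 1.93) higher at 5 wk, Inha 1.51 times (1.49 to 1.52) higher at 2 wk and Inhbb 1.25 times (1.18 to 1.33) higher at 5 wk.

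The direction of Inhba and Tgfbr3 was the same within each of the 4 antral clusters, with Inhba 4.95 times higher at 5 wk in cluster 11, 4.47 in cluster 8, 9.56 in cluster 2 and 5.55 in cluster 13. The Inha difference was not the same in every cluster. It was 2.02 times higher at 2 wk in cluster 2 and 1.95 in cluster 8, but in cluster 11 the levels were 10453 and 10444 CPM. Inhbb was 3.92 times higher at 2 wk in cluster 2 and 2.07 times higher at 5 wk in cluster 11. Cluster 11 also held 135 CPM of Lhcgr, the receptor of luteinizing hormone, at 2 wk, against 6.34 CPM at 5 wk. Whether it held the same kind of cell at both ages was not tested. In the primary and secondary groups Inhbb was 3.19 (2.72 to 3.76) and 3.58 (3.14 to 4.10) times higher at 2 wk than at 5 wk, and in both secondary clusters the 2 wk level was the higher (224 against 57.3 CPM in cluster 0, 156 against 54 in cluster 9). With 1 library at each age, these differences had no replicate check. The libraries of 2 and 5 wk also differed in the version of Cell Ranger, which cannot be told apart from age.

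Theca-like cells, the androgen-making layer around the follicle, were compared with stromal-like cells in the same way. Inha and Tgfbr3l were at least 2-fold higher in theca-like cells in all 5 libraries, as were 3.17% of 14560 genes, and no member was lower in all 5, against 6.4% of the genes. Both calls were lost after thinning each cell to 2000 UMIs and with libraries merged without anchors. With the mean CPM of single cells Tgfbr3l was called and Inha was not, and with TMM library sizes Inha was called and Tgfbr3l was not. The median mean log2 ratio was 0.24 over the members and -0.01 over all genes. Theca-like Inha stood at 342, 289, 412, 884 and 439 CPM, above the hematopoietic-like level at 2, 5 and 6 wk and below it at 3 and 4 wk. Tgfbr3l, at 1.91 to 6.02 CPM from 6 to 30 UMIs per library, passed the limit at 6 wk only with the 0.5 UMI added, since its plain ratio there was 1.99. Theca-like cells also carried UMIs of granulosa marker genes, among them Amh, Kctd14 and Tnni3, at a summed level of 189 to 568 CPM. Granulosa-like cells held 1507 to 2810 CPM of these markers and hematopoietic-like cells 175 to 495.

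Per granulosa marker UMI, theca-like cells of 5 wk held 4.67 (4.48 to 4.87) Inha UMIs, where granulosa-like cells of that library held 2.22 (2.20 to 2.24) and hematopoietic-like cells 1.94 (1.66 to 2.28). A high ratio was not particular to theca-like cells. In the same library lymphatic endothelial-like cells held 5.55 (4.21 to 7.43), from 60 marker UMIs, and blood endothelial-like cells 2.60 (2.37 to 2.87). Stromal-like, pericyte-like, surface epithelial-like and smooth muscle-like cells held 0.92 to 1.77. At the other 4 ages theca-like cells held 0.688 to 0.983, below the granulosa-like cells of the same library. The 5 wk library was also that with the most theca-like cells, 669 against 137 to 290. Of these 669 cells, 345 had at least 1000 genes and under 10% mitochondrial UMIs. By the same filter 114, 238, 274 and 137 theca-like cells remained at 2, 3, 4 and 6 wk. At that age 63.2% of thinned theca-like cells held an Inha UMI, and 88.0% before thinning, against 13.3% and 26.0% of hematopoietic-like cells. Median depths over all ages were 16781 and 6655.5 UMIs per cell.

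Other genes of the pathway, listed with earlier results known, were counted by the same rule. Of the 9 other type I and type II receptors of the family, Amhr2 and Bmpr1b were higher in granulosa-like than in stromal-like cells in all 5 libraries, and Tgfbr2, Acvrl1 and Acvr1 were lower. Amhr2, the receptor of anti-Müllerian hormone, was also used to name clusters. Of 6 other ligands tested, Bmp7 and Bmp4 were lower in granulosa-like cells and none was higher. Of 12 co-receptors and antagonists 2 were higher and 5 lower, led by Tdgf1 and Eng, and of 17 SMADs and nuclear partners Tgif1 was higher and Pmepa1 lower. The convertase Pcsk5 was lower. Of 11 genes of the gonadotropin axis 7 were higher, but 5 of these 7 (Fshr, Cyp19a1, Hsd17b1, Nr5a2 and Esr2) were used to name clusters, so their part of the count was fixed by the naming. Over all lists 12 of 59 genes tested were higher and 12 lower (20.3% each), against 9.18% and 11.2% of all genes, and 6 of the 12 higher genes were used to name clusters. In theca-like against stromal-like cells 3 of 54 genes of the lists were higher (5.56%, against 3.17% of all genes) and 7 lower (13%, against 6.4%), and 3 of these 10 were used to name clusters.

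From the primary to the antral group Bmpr1b and Bmpr2, receptors of bone morphogenetic proteins, were higher in all 5 libraries, by a mean log2 ratio of 1.85 and 1.73. Of 5 other ligands tested Bmp2 was higher (log2 4.31 ± 1.57 SD) and Bmp7 lower (-3.49 ± 1.29).

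Among 9 co-receptors and antagonists tested, Grem1 and Htra1, the latter also used to name clusters, were higher in the antral group. Of 17 SMADs and nuclear partners, which carry the signal into the nucleus, only Smad3 was called, at 8.11 to 36.9 CPM in the antral and 57.6 to 94.4 CPM in the primary group. Of 4 proprotein convertases, which cut the precursors of these ligands, Pcsk6 was lower, at 1.98 to 44.6 against 129 to 254 CPM. Of 11 genes of the gonadotropin axis Fshr, Foxo1 and Hsd17b1 were higher in the antral group. Cyp19a1, Hsd17b1 and Fshr were lower in the remodeling than in the antral group. Fshr, Hsd17b1 and Cyp19a1 were also used to name clusters. Fstl1, a follistatin-like protein, was the only gene of these lists higher in the remodeling than in the antral group in all 5 libraries. It stood at 9.58 to 23.5 against 4.39 to 8.24 CPM. This was 1 of 53 genes (1.89%, against 2.41% of all genes). Stromal-like cells held 210 to 317 CPM of Fstl1, and the part of stromal RNA in the remodeling level was not tested. The 3 genes lower in the remodeling group (5.66%, against 0.658%) were all used to name clusters. From the primary to the antral group 8 of 54 genes were higher (14.8%, against 2.31%) and 3 lower (5.56%, against 3.53%). Of the 8 higher genes 3 were used to name clusters.

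The members were also set beside all genes by their pattern over the 7 granulosa groups of the 5 libraries, 35 points that share libraries and depth. Pearson's r of log2(CPM + 1) was computed for 11598 genes and is given as a description. The genes most like Inha were Otor (0.909), Ndufs3 (0.903) and Aif1l (0.899), and those most like Inhbb were Ndufs8 (0.9), Smim10l2a (0.892) and Plekhd1 (0.879). Inhba was most like Nap1l5 (0.946), which was used to name the antral clusters, Car14 (0.910) and Fst (0.898). Fst was most like Tex15 (0.948), Atp5j (0.937) and Bcl7c (0.924). Among the members, r was 0.70 between Inhba and Inhbb and 0.81 between Inha and Inhbb, and Tgfbr3l ran against Inhba at -0.66 and against Fst at -0.62.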

How the data were processed

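Reads had been aligned to mm10 (GRCm38) with Cell Ranger, and the authors deposited its filtered matrices of raw UMI counts per gene and cell, without normalization. The count of UMIs per library is 93438618 to 144609431. The 10 members and the pathway lists were chosen with earlier results of these data known. Cells were integrated and clustered in Seurat 5.3.0 (2000 variable genes, of which 4 members were left out, 30 components, resolution 1), and granulosa-like cells were clustered a second time. Clusters needed 3 detected markers. Limits for naming were set after clusters had been seen, and stages within 0.5 of the highest mean z score were decided by correlation (at least 0.7) with the study's published cluster profiles. Scrublet doublets were kept, except in an alternative. UMIs were summed per group and library in Python 3.11.15 with numpy 2.4.6, and scipy 1.17.1 gave exact Poisson, binomial and conditional ratio intervals at 95%. The 2-fold limit was applied to genes whose UMIs in the compared groups summed to 50 or more. Members were counted without this minimum, which Fstl3 and Tgfbr3l missed in the antral group between 2 and 5 wk. All 10 members were named, with up to 3 genes per pathway list and direction by mean log2 ratio, and the 3 genes most like each of Inha, Inhba, Inhbb and Fst among genes with at least 500 UMIs. The computation of the ratios was checked on simulated data. Cell groups were compared by ratios within each of the 5 libraries and given no test, because the groups were built from the expression of the same cells, and ages were given none because each is 1 library. Of the members, 8 had a RefSeq window.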

Additional observations from a re-analysis of the deposited data

Results flagged for a closer look

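The ratio of theca-like over stromal-like cells was not on the same side of 1 in all libraries for 3 members, with counting intervals on either side, and the differences between ages were not tested. Inhbb had ratios of 1.99 at 2 wk and 2.1 at 6 wk but 0.648 at 5 wk. Tgfbr3 had 0.604 at 2 wk and 0.628 at 6 wk but 1.4 at 4 wk, and Acvr2a had 1.32 at 5 wk but 0.553 at 6 wk.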

How the results depend on the processing

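Members higher in theca-like than in stromal-like cells in all 5 libraries numbered 2, but 0 after thinning each cell to 2000 UMIs, 1 with the mean CPM of single cells, 1 with TMM library sizes (edgeR 4.0.16) and 0 with libraries merged without anchors. Members lower in granulosa-like than in stromal-like cells numbered 0, but 1 with the mean CPM, 1 with TMM, and 0 to 1 when 1 library was left out, with 1 without the 4 wk and without the 5 wk library. Members lower in the remodeling than in the antral group numbered 4, but 2 (Inhba and Inhbb) at a resolution of 0.6, where the remodeling group held 1 and 17 cells at 2 and 3 wk, and the same 2 with stages named from markers alone, an alternative chosen after seeing the data. Antral members higher at 2 wk than at 5 wk were counted with no minimum of UMIs. They numbered 1, but 2 after thinning, 2 after subtracting the hematopoietic-like CPM and 4 with merged libraries. With merged libraries 17 antral cells remained at 2 wk. With no minimum of UMIs, genes called higher numbered 1129 in theca-like cells and 506 in the remodeling group, against 462 and 318. The other 151 alternatives of these counts and shares stayed within their limits. Of 560 alternative mean log2 ratios of single members, 56 moved by more than the spread between libraries, and none with a call changed sign. Small groups limit the counting precision, and the variation between mice was not measured. Cell groups were already compared within each library. No paired analysis was possible because ages have 1 library each, with no second sample to pair, and no result comes from a test.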
